A study of Homo sapiens with 29 samples.

Results

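Long intergenic non-coding RNAs and antisense RNAs were followed in HepG2 cells, a line derived from a human liver tumour, with and without the herb Cratoxylum cochinchinense Lour. The genes were taken by name, as every symbol in the array's probe table that begins with LINC and a digit or ends in -AS and a digit, with a log2 value above 5 on at least 2 arrays. Of 938 such symbols, 68 met this limit, 31 named LINC and 37 named -AS, among 6529 named genes that met it on the whole array. Where a gene had several probe sets, which was so for 15 of the 68, the one with the highest mean stood for it.

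Total RNA was hybridized to 29 Affymetrix arrays, each labelled by arm, time and set. The treated arm, called CCL in the labels, was sampled at 6 h, 12 h and 18 h (3 arrays each) and at 24 h and 48 h (2 arrays each). The untreated arm was sampled at 0 h and 18 h (2 arrays each) and at 6 h, 12 h, 24 h and 48 h (3 arrays each). Dose, vehicle and any treatment given to the untreated cells are not stated in the labels, and nothing says that the sets were independent cultures, so p-values measure the spread between these arrays, which may be technical. RNA came from whole cultures, so fewer cells that make a transcript and less of it per cell cannot be told apart.

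Long non-coding RNAs are transcribed and often spliced and polyadenylated like messenger RNAs but carry no long open reading frame. LINC genes lie between coding genes, and -AS genes are transcribed from the strand opposite to the gene they are named after, either across its body or away from a shared promoter region. Many are made at low levels, are retained in the nucleus and turn over quickly, and some act on the transcription or the RNA of a neighbouring gene.

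Besides their names, the members were chosen by their log2 level over all arrays, given here as a description. It kept 7.25% of the LINC and -AS symbols, against 46.3% of the other named genes. Only 20 of the 68 RNAs were above 5 on every array, while 19 were above it on 2 to 4 arrays. In both arms, 49 RNAs were above 5 on at least 2 arrays. LINC00941, LINC00668, LINC00701 and CACNA1G-AS1 were above 5 on no untreated array, and LINC00261, LINC00641, LINC00997, ASMTL-AS1, ELOA-AS1, MAP3K14-AS1 and NUTM2A-AS1 on no CCL array. Such RNAs entered through the arm in which they were brighter, so the counts over the 68 describe these RNAs and are no support for a general direction. Nearest to the limit, the second brightest array read 5.04 for PEG3-AS1 and LINC00701 inside it, and 4.997 for LINC01124 and ZNF503-AS2 outside it.

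The deposited values were not on 1 common scale. The array medians over all probe sets ran from 2.29 to 3.39, and 6 arrays stood apart from others of their time: untreated 18 h set 1, untreated 24 h set 1, CCL 6 h set 1, CCL 18 h set 3, CCL 24 h set 1 and CCL 48 h set 1. Leaving out these 6 keeps 1 array each in untreated 18 h, CCL 24 h and CCL 48 h. Changes averaged over the times then rest on a single array in those groups. Of 9 hepatocyte markers, 7 were named and tested here, with mean log2 values from 7.15 for APOA1 to 11.9 for ALB. Of the named markers of other cells, PECAM1, VWF and KDR of endothelium, DCN of fibroblasts and CD14 of leukocytes had means between 1.94 and 2.94, below the limit, whereas the leukocyte marker LYZ stood at 10.6 and did not differ between arms (log2 fold change 0.01 ± 0.08, SE).

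Averaged over the 5 times, 3 of the 68 RNAs rose with CCL and 18 fell. LINC00673, LINC00941 and ARHGAP5-AS1 were the 3 that rose, LINC00673 to 1.93 times its untreated level. The largest falls were those of LINC00261, an RNA of endoderm whose nearest tested neighbour is FOXA2, to 0.51 of its untreated level, of LBX2-AS1, named after a homeobox gene, of LINC01963 and of TMPO-AS1, named after a protein of the nuclear lamina. Calls rest on limma, fitted to all 29 arrays, with Benjamini-Hochberg adjustment over the 6529 genes and an adjusted p under 0.05. Called RNAs made up 4.41% of the 68 in the upward and 26.5% in the downward direction, beside 13.6% and 11% of all genes tested, and 30.9% against 24.6% in all. A comparison without the 6 arrays that stood apart was added after the data had been seen. The changes were then 0.86 for LINC00673, 0.45 for LINC00941 and 0.50 for ARHGAP5-AS1. They were -0.74 for LINC00261, -0.70 for LBX2-AS1, -0.79 for LINC01963 and -0.68 for TMPO-AS1. That fit keeps 1 array in untreated 18 h, CCL 24 h and CCL 48 h, so its count of calls in the mean is not given.

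Of the 31 LINC RNAs, 5 fell (16.1%) and 2 rose (6.45%), and of the 37 antisense RNAs, 13 fell (35.1%) and 1 rose (2.7%), beside 11% and 13.6% of all genes. The share of LINC RNAs that fell was thus nearer to that of all genes, and the classes were not tested against each other. The median log2 fold change was -0.14 over the 68, -0.09 for the LINC RNAs and -0.18 for the antisense RNAs, against 0.01 over all genes. Among the 49 RNAs above 5 on at least 2 arrays of each arm, 12 fell (24.5%) and 2 rose (4.08%), beside 10.9% and 13.1% of the 5892 genes that met the same limit. CCL values lay below untreated values, in the mean, at all 5 times for 15 RNAs (22.1%, against 8.5% of all genes) and above them at all 5 times for 4 (5.88%, against 15% of all genes). With no limit on level, 26 of all 938 symbols fell (2.77%, against 4.7% of all 14884 named genes) and 16 rose (1.71%, against 6.52%). The members also varied more between arrays of a group, with a median residual SD of 0.39 log2 units against 0.32 over all genes.

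**Figure D1:**
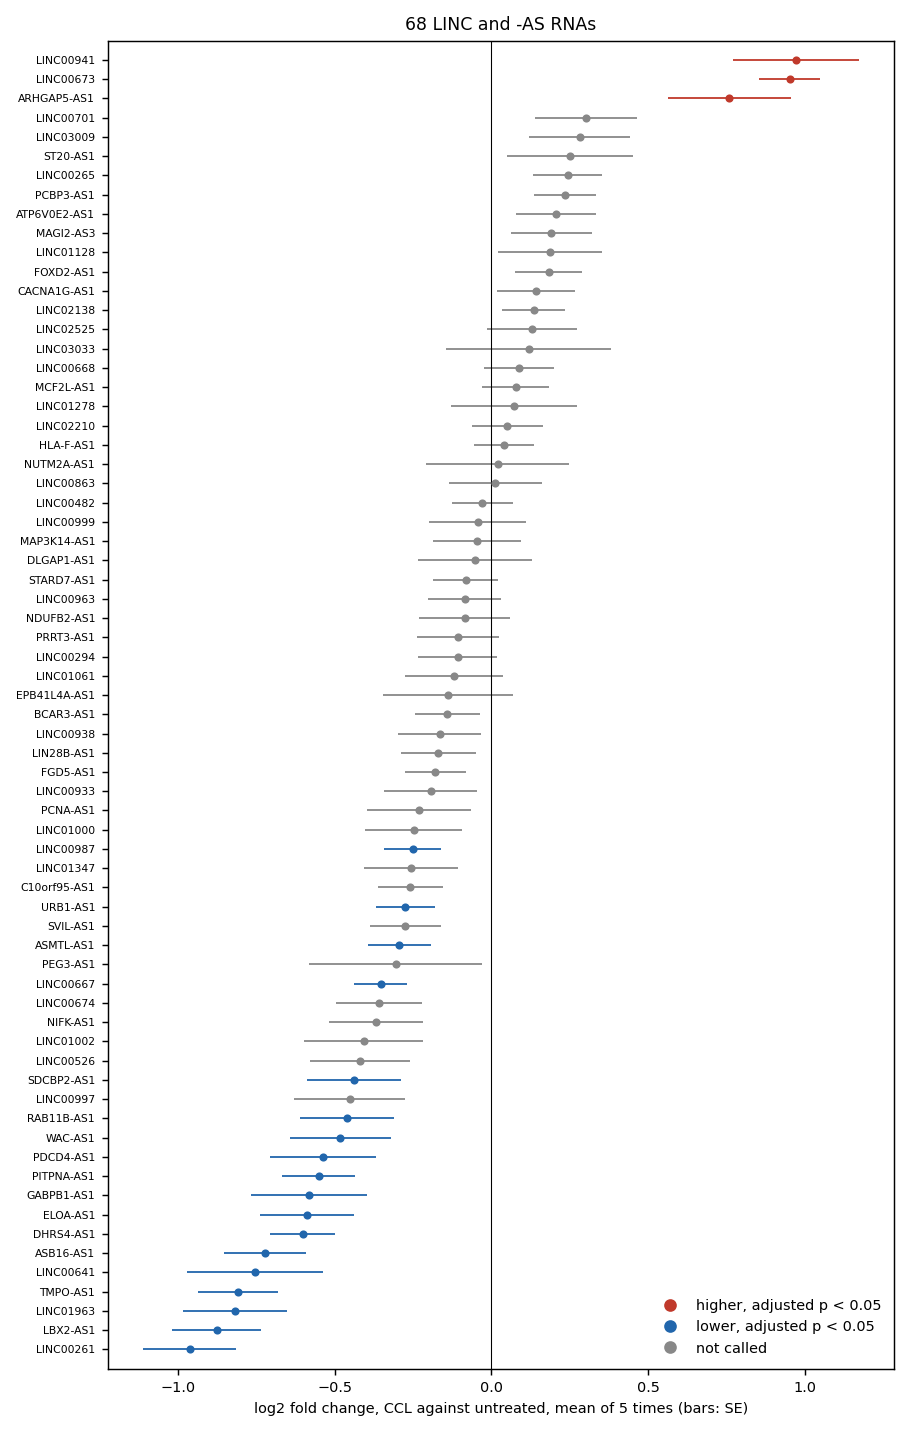
Log2 fold change of each of the 68 RNAs, CCL against untreated, averaged over the 5 times; points are limma estimates and bars are 1 SE. The 3 RNAs called higher lie between 0.76 and 0.97, and the 18 called lower between -0.96 and -0.25, some of them with smaller changes than RNAs that did not pass the test.

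The promoters of the RNAs that rose, and of LINC00261, the RNA with the largest fall, are shown to place their start sites. No value here links these sequences to expression. Each is the RefSeq window of the transcript on GRCh38.p14, 5′ to 3′ on the strand of the RNA around its start. The windows are chr17:72592755-72593054 (minus strand) for LINC00673, chr12:30795431-30795730 (plus) for LINC00941, chr14:32076650-32076949 (minus) for ARHGAP5-AS1 and chr20:22578593-22578892 (minus) for LINC00261. Capitals mark matches, on either strand, to 6 motifs: TGANTCA (AP-1), TGACGTCA (the cyclic AMP response element), TGATGNAA (a C/EBP-ATF element), TGACNNNGC (the core of the antioxidant response element), CACGTG (an E-box) and TATAAA. The AP-1 and antioxidant letters can overlap, as can the cyclic AMP and antioxidant ones.
LINC00673: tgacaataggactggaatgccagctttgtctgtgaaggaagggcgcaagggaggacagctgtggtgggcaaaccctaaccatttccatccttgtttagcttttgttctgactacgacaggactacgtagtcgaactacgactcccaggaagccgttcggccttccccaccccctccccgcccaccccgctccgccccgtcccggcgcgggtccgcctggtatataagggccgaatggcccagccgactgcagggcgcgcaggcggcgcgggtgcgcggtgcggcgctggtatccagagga
LINC00941: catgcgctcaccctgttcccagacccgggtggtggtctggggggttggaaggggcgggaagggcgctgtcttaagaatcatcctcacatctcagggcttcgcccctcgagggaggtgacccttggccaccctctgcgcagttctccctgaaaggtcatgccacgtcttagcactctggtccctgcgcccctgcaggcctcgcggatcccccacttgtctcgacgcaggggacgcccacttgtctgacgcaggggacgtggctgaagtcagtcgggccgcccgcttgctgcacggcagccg
ARHGAP5-AS1: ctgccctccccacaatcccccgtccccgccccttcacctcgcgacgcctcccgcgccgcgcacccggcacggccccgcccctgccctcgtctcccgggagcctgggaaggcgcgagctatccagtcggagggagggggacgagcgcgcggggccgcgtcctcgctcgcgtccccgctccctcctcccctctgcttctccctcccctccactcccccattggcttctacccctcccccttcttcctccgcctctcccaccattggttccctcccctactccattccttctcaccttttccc
LINC00261: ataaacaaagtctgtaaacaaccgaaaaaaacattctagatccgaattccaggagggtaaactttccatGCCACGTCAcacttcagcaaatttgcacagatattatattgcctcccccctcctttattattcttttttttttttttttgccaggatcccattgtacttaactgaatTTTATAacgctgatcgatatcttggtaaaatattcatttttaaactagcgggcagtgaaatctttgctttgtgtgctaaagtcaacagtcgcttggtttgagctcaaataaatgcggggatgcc

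None of the 6 motifs occurred in the windows of the 3 RNAs that rose, and the LINC00261 window held TGACNNNGC and TATAAA, both on the opposite strand. RefSeq windows were matched for 59 of the 68 RNAs, 68 windows in all. TGACNNNGC occurred in 17 of these 68, against 13.3% of all 35116 promoter windows, and TGANTCA in 6, against 7.71%. CACGTG occurred in 5 (7.26% of all windows), TATAAA in 3 (11.5%), TGACGTCA in 1 (1.85%) and TGATGNAA in 0 (3.62%). The windows were rich in G and C, with a median GC content of 64.5% and 22 CpG dinucleotides, against 58.7% and 14 over all windows. By contrast the LINC00261 window had 37% GC and 8 CpG. A match says only that the letters are present in the window.

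LINC00673 is an RNA of chromosome 17 studied in several carcinomas. On the log2 scale its untreated values were 6.61, 6.48 and 6.68 at 6 h, 6.06, 5.97 and 5.92 at 12 h, 5.47 and 6.40 at 18 h, 5.80, 5.58 and 6.08 at 24 h, and 5.84, 5.76 and 6.05 at 48 h. Its CCL values were 7.08, 7.33 and 7.44 at 6 h, 7.03, 6.98 and 6.87 at 12 h, 7.37, 7.08 and 7.62 at 18 h, 7.04 and 7.02 at 24 h, and 6.27 and 6.40 at 48 h. At each of the 5 times every CCL array was above every untreated array, with the narrowest gap at 48 h, when CCL values were at their lowest. The mean log2 fold change was 0.95 ± 0.10 (SE, limma, adjusted p = 8.88e-08), and the call was kept whichever of the 27 arrays compared was left out.

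LINC00941, an RNA of chromosome 12 studied in tumours of the gut and liver, was dim in untreated cells. Its untreated log2 values were 3.01, 2.98 and 3.31 at 6 h, 3.16, 2.97 and 2.84 at 12 h, 2.12 and 3.27 at 18 h, 2.58, 3.04 and 3.51 at 24 h, and 3.23, 2.97 and 3.76 at 48 h. With CCL they were 3.84, 3.37 and 3.81 at 6 h, 3.26, 3.26 and 4.23 at 12 h, 3.69, 3.69 and 5.45 at 18 h, 4.27 and 3.75 at 24 h, and 5.32 and 3.61 at 48 h. The arms did not overlap from 6 h to 24 h, and overlapped at 48 h, when 1 CCL array read 5.32 and the other lay below the brightest untreated array. Only those readings of 5.45 and 5.32 passed the limit on level. The mean log2 fold change was 0.97 ± 0.20 (SE, limma, adjusted p = 7.81e-04). Both bright readings come from arrays that stood apart by their median, and without the 6 such arrays it was 0.45 ± 0.14 (limma, adjusted p = 0.0279).

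ARHGAP5-AS1 starts beside ARHGAP5, the coding gene it is named after. Its untreated log2 values were 5.91, 5.95 and 5.76 at 6 h, 5.93, 5.83 and 6.10 at 12 h, 5.08 and 5.95 at 18 h, 5.50, 4.87 and 6.32 at 24 h, and 5.46, 5.61 and 6.56 at 48 h. Its CCL values were 6.50, 5.61 and 7.29 at 6 h, 6.13, 6.15 and 6.60 at 12 h, 6.55, 6.31 and 7.82 at 18 h, 7.11 and 6.42 at 24 h, and 6.15 and 6.15 at 48 h. CCL arrays were all above untreated ones at 12 h, 18 h and 24 h, whereas at 6 h and 48 h the arms overlapped. The mean log2 fold change was 0.76 ± 0.20 (SE, limma, adjusted p = 0.00568). It was 0.50 ± 0.23 and not called without the 6 arrays that stood apart (adjusted p = 0.132).

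LINC00261 was the RNA with the largest fall. Its untreated log2 values were 4.99, 4.59 and 4.97 at 6 h, 3.60, 4.01 and 4.10 at 12 h, 4.60 and 4.90 at 18 h, 4.47, 5.24 and 4.97 at 24 h, and 4.86, 5.42 and 5.07 at 48 h. With CCL they were 3.42, 4.20 and 4.70 at 6 h, 2.64, 3.14 and 2.92 at 12 h, 4.29, 3.98 and 3.82 at 18 h, 3.03 and 4.24 at 24 h, and 3.62 and 4.46 at 48 h. All CCL arrays were below all untreated arrays from 12 h on, and both arms were low together at 12 h, as were the medians of all 6 arrays of that time. The mean log2 fold change was -0.96 ± 0.15 (SE, limma, adjusted p = 2.94e-05).

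LBX2-AS1 read 6.24, 5.75 and 6.65 untreated and 6.00, 5.22 and 5.30 with CCL at 6 h, and 5.91, 5.80 and 6.18 against 5.10, 5.22 and 5.35 at 12 h. At 18 h it read 6.83 and 6.69 against 5.65, 5.79 and 5.69, at 24 h 6.26, 6.55 and 6.89 against 5.03 and 5.81, and at 48 h 6.60, 6.75 and 6.68 against 5.17 and 6.72. The arms were apart at 12 h, 18 h and 24 h, and at 48 h the second CCL array lay among the untreated ones. Its mean log2 fold change was -0.88 ± 0.14 (SE, limma, adjusted p = 5.71e-05).

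TMPO-AS1 read 6.13, 5.75 and 5.87 untreated and 4.79, 5.22 and 5.39 with CCL at 6 h, and 4.94, 4.93 and 5.47 against 4.63, 4.40 and 4.24 at 12 h. At 18 h it read 5.24 and 5.85 against 5.31, 4.93 and 5.19, at 24 h 5.84, 6.26 and 6.15 against 4.19 and 5.33, and at 48 h 6.15, 6.05 and 5.67 against 4.75 and 5.48. The arms overlapped at 18 h alone among these times. Its mean log2 fold change was -0.81 ± 0.13 (SE, limma, adjusted p = 3.77e-05).

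**Figure D2:**
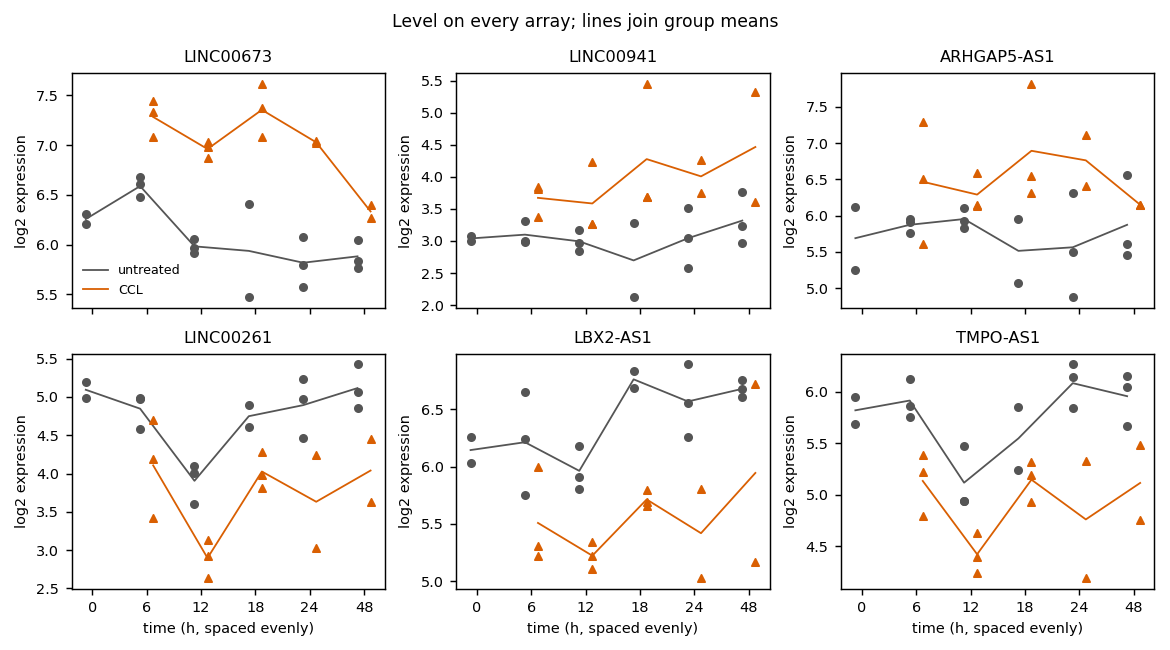
Log2 expression (y axis) on every array against time in hours, spaced evenly (x axis), for 6 RNAs; grey circles are untreated arrays, orange triangles CCL arrays, and lines join group means. LINC00673 is above the untreated arrays at all 5 times, LINC00941 and ARHGAP5-AS1 rise with wider scatter, and LINC00261, LBX2-AS1 and TMPO-AS1 lie lower in CCL.

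LINC01963 fell by 0.82 ± 0.17 on the log2 scale (SE, limma, adjusted p = 6.58e-04). It was apart between arms at 6 h, at 12 h (untreated 5.17, 5.51 and 4.94, CCL 4.08, 3.94 and 4.01) and at 48 h (untreated 5.22, 5.38 and 5.60, CCL 2.93 and 4.62). LINC00641 fell by 0.75 ± 0.22, and its arms were apart at 6 h alone, where untreated arrays read 5.17, 5.20 and 5.17 and CCL arrays 3.39, 3.96 and 4.24. That call was lost without CCL 48 h set 1 (adjusted p = 0.0532), the array in which LINC00641 read 2.24. With the mean of its 2 probe sets the change was -0.36 (limma, adjusted p = 0.0457), the dimmer one showing 0.04. LINC00667 fell by 0.35 ± 0.08. Among antisense RNAs treated further below, ASB16-AS1 fell by 0.72 ± 0.13 and DHRS4-AS1 by 0.60 ± 0.10.

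Smaller falls passed the test in the remaining antisense RNAs. ELOA-AS1 fell by 0.59 ± 0.15 on the log2 scale (SE) and PITPNA-AS1 by 0.55 ± 0.12, calls kept whichever array was left out. GABPB1-AS1 fell by 0.58 ± 0.19, a call lost without untreated 18 h set 3 or CCL 48 h set 1, with an adjusted p of up to 0.0973. PDCD4-AS1 fell by 0.54 ± 0.17, a call lost without untreated 18 h set 3, CCL 24 h set 1 or CCL 48 h set 1 (up to 0.0828). It was -0.35 without the 6 arrays that stood apart, and with the mean of its probe sets it was -0.21 and not called (limma, adjusted p = 0.104). RAB11B-AS1 (-0.46 ± 0.15) and SDCBP2-AS1 (-0.44 ± 0.15) also fell, and are named to complete the count, after their values were seen. FOXD2-AS1, an RNA reported in liver tumours, did not pass the test (0.18 ± 0.11, adjusted p = 0.227).

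Each of the 5 RNAs with the brightest probe sets had several, which differed in level. LINC00987 was represented by a probe set with a mean of 10.2 and a log2 fold change of -0.25 ± 0.09 (limma, adjusted p = 0.0448), whereas its other probe set had a mean of 3.23 and a change of -0.04. That call was lost in 17 of the 27 fits that left out 1 array (adjusted p up to 0.110) and with the mean of both probe sets (adjusted p = 0.268). LINC01347 had 6 probe sets with means from 3.38 to 8.98 and changes from -0.49 to 0.30. LINC01061 had 7, LINC00999 had 4 and LINC01000 had 3, and the probe sets standing for these RNAs did not pass the test (-0.12 ± 0.16, -0.04 ± 0.16 and -0.25 ± 0.15). Changes of single probe sets ran from -0.38 to -0.11 for LINC01061, from -0.28 to -0.20 for LINC01000 and from -0.04 to 0.33 for LINC00999. Levels of these RNAs are uncertain, since near-identical copies could contribute to some probe sets.

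At single times few RNAs passed the test, and the count moved with the scale of the arrays. At 6 h limma called 1 of the 68 (0.306% of all genes), ASB16-AS1, which was lower (0.0306% of all genes), and 0 higher (0.276%), where 1 was higher at an unadjusted p under 0.05. At 12 h it called 2 (1.24%), LINC00673 higher (1.04%) and LINC00667 lower (0.199%). At 18 h it called 7 (12.5%), of which 6 were higher (12.3%) and 1 lower (0.184%). At 24 h it called 3 (3.02%), LINC00673 higher (2.54%) and LINC00261 and TMPO-AS1 lower (0.475%). At 48 h it called 3 (6.56%), ASB16-AS1, ELOA-AS1 and LINC01963, all lower (5.22%), and 0 higher (1.33%), where 2 were higher at an unadjusted p under 0.05.

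The median log2 fold change of the 68 RNAs was -0.20 at 6 h, -0.18 at 12 h, 0.24 at 18 h, -0.12 at 24 h and -0.48 at 48 h. Over all genes it was -0.06, -0.06, 0.41, 0.04 and -0.26, so the members' median lay below that of all genes at each time. CCL arrays were all below untreated arrays for 19 RNAs at 6 h, 21 at 12 h, 6 at 18 h, 11 at 24 h and 27 at 48 h. Over all genes this held for 13.8%, 21.4%, 2.56%, 5.39% and 29.5%, beside 27.9%, 30.9%, 8.82%, 16.2% and 39.7% of the members. The opposite order held for 2, 6, 14, 6 and 5 RNAs, beside 6.23%, 11.8%, 32.5%, 13.9% and 10.3% of all genes.

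The 18 h values carried the shift of the whole array. LINC00941 (1.58 ± 0.47, SE), LINC00673 (1.42 ± 0.23), ARHGAP5-AS1 (1.38 ± 0.46) and LINC01128 (1.25 ± 0.39) were called higher there by limma, as were LINC00701 (1.15) and MAGI2-AS3 (0.95), which are named after their values were seen. LBX2-AS1 was called lower (-1.05 ± 0.33). After quantile normalization, which removes the shift, 1 RNA was called higher at 18 h (3.43% of all genes), LINC00673 (1.02, limma, adjusted p = 0.00122). In the same fit 8 were called lower (1.75% of all genes). The count of members with a positive 18 h difference went from 47 of 68 to 22 of 68. Over all genes 87% were positive before this step, and their median went from 0.41 to 0.002. Leaving out the 6 arrays that stood apart keeps 1 untreated array at 18 h, so calls of that fit are not given for this time.

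Most calls at single times could be lost by leaving out 1 array. Untreated 18 h, CCL 24 h and CCL 48 h had 2 arrays each, so leaving 1 of them out keeps a single array there. Some changes held where the call was lost, as for LINC00673 at 24 h (1.09 to 1.34) and ASB16-AS1 at 6 h (-1.46 to -1.19). Others moved widely, as for LINC01128 at 18 h (0.37 to 2.13). At 18 h those of LINC00941, ARHGAP5-AS1 and LINC01128 were lost without untreated 18 h set 1 or CCL 18 h set 3 (limma, adjusted p up to 0.832, 0.863 and 0.998), and that of LINC00673 without untreated 18 h set 1 (0.0867). LBX2-AS1 lost its 18 h call without untreated set 1, CCL set 1 or CCL set 3 (up to 0.521). At 24 h LINC00673 lost its call without CCL set 1 (0.0752), TMPO-AS1 without CCL set 1 or untreated set 2 (up to 0.667), and LINC00261 without CCL set 1 or untreated sets 2 or 3 (up to 0.951). The 48 h calls were lost without CCL set 1 and without most untreated arrays. With 1 array left out these 48 h changes ranged from -1.54 to -0.66 for ASB16-AS1, -2.04 to -0.25 for ELOA-AS1 and -2.47 to -0.78 for LINC01963. At 6 h ASB16-AS1 and at 12 h LINC00667 lost their calls whichever array was left out (adjusted p from 0.0539 to 0.15, and from 0.0712 to 0.212), and LINC00673 at 12 h in 4 of 6 cases (up to 0.0823).

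No RNA passed the test for a CCL effect that differed between times: limma called 0 of the 68 (0.0153% of all genes), and 6 had an unadjusted p under 0.05, with ASB16-AS1 lowest after adjustment (adjusted p = 0.450). Between untreated cells at 48 h and 6 h limma also called 0 (0.0153% of all genes), with 2 at an unadjusted p under 0.05. No share of all genes is given for an unadjusted p, here or at the single times above, so those counts are a description.

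**Figure D3:**
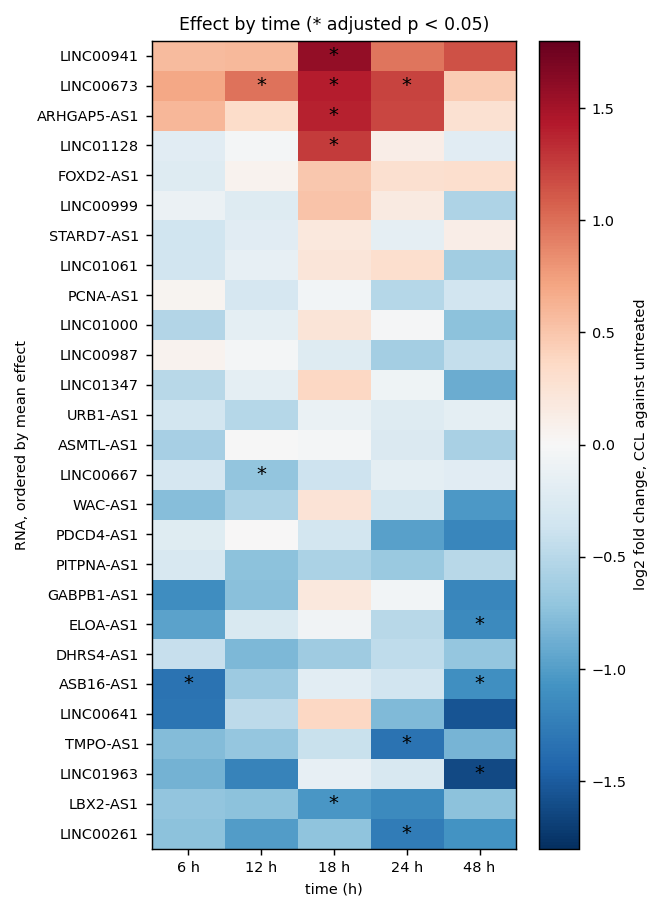
Log2 fold change, CCL against untreated, as colour (red higher, blue lower) for the 27 RNAs named by rule (rows, ordered by mean effect) at 6 h, 12 h, 18 h, 24 h and 48 h (columns); asterisks mark adjusted p under 0.05. LINC00941, LINC00673 and ARHGAP5-AS1 are red at all 5 times, and several RNAs lower at other times are pale or red at 18 h, when the median of all genes was 0.41.

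Antisense RNAs were then set against the genes they are named after. Of the 37, the sense gene of 21 was named on the array and that of 13 was tested. ASMTL-AS1 fell while ASMTL rose, TMPO-AS1 fell with TMPO, and ARHGAP5-AS1 rose with ARHGAP5. In 5 pairs the antisense RNA alone was called, in 2 the sense gene alone (PCNA and STARD7), and in 3 neither. The change of the antisense RNA lay below that of its sense gene in 10 of 13 pairs, with a median difference of -0.28 log2 units. For each pair the arm labels were permuted within each time in all 400000 ways, a two-sided exact permutation test of the difference between antisense and sense changes. Of 13 unadjusted tests 6 gave p under 0.05, each with the antisense RNA below its sense gene. The 37 antisense RNAs had a median change of -0.18, against 0.01 over all genes, and no other gene pairs were compared. These counts may therefore restate that lower median and are a description.

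ASMTL-AS1 differed most from its partner. ASMTL, which encodes a protein related to the last enzyme of melatonin synthesis, read 5.34, 5.40 and 5.28 untreated and 5.48, 5.76 and 5.10 with CCL at 6 h, then 5.52, 5.39 and 4.89 against 6.10, 6.16 and 5.51 at 12 h. At 18 h it read 4.85 and 5.53 against 5.98, 6.06 and 6.14, at 24 h 5.05, 5.54 and 5.36 against 6.49 and 5.95, and at 48 h 5.49, 5.27 and 5.11 against 6.17 and 6.03. The sense gene was thus apart and higher in CCL at 18 h, 24 h and 48 h. ASMTL-AS1 read 4.54, 4.55 and 4.73 against 3.48, 4.32 and 4.22 at 6 h, 3.82, 3.88 and 3.87 against 3.77, 3.86 and 3.93 at 12 h, and 4.12 and 4.87 against 4.52, 4.28 and 4.59 at 18 h. At 24 h it read 4.41, 4.43 and 4.48 against 4.33 and 4.04, and at 48 h 4.67, 4.50 and 4.48 against 3.76 and 4.17. The antisense RNA was apart and lower at 6 h, 24 h and 48 h, and its change at 12 h and 18 h was -0.003 and -0.03, where that of ASMTL was 0.66 and 0.88. ASMTL rose by 0.67 ± 0.11 on the log2 scale (SE, limma, adjusted p = 9.20e-05). ASMTL-AS1 fell by 0.29 ± 0.10 (limma, adjusted p = 0.0333), a call lost in 8 of the 27 fits that left out 1 array (up to 0.0930) and with the mean of both probe sets (adjusted p = 0.0991). The difference between them was -0.96 (exact permutation p = 1e-05). ASMTL-AS1 read above 5 only on the untreated 0 h arrays (5.12 and 5.12), which entered no comparison. It thus met the limit on level through untreated cells alone, and the pair describes these RNAs without support for a general direction.

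ASB16-AS1 fell and was not matched by ASB16, which encodes a substrate receptor of a ubiquitin ligase. ASB16 was dim, with a mean log2 value of 4.69 against 5.54 for ASB16-AS1, and whether its level hid a change was not tested. ASB16-AS1 read 6.20, 5.97 and 6.52 untreated and 4.63, 4.98 and 5.09 with CCL at 6 h, 5.09, 5.55 and 5.67 against 4.58, 4.69 and 5.08 at 12 h, and 5.93, 6.12 and 6.14 against 4.52 and 5.41 at 48 h. The values at 18 h were 5.31 and 6.17 against 5.69, 5.16 and 5.82, and at 24 h 5.50, 5.21 and 6.14 against 5.40 and 5.15. The arms were apart at 6 h, 12 h and 48 h and overlapped at 18 h and 24 h. ASB16 changed by -0.02 ± 0.10 (limma, adjusted p = 0.930), and the antisense RNA lay 0.71 log2 units lower in response (difference -0.71, exact permutation p = 4.43e-04).

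DHRS4-AS1, reported to silence genes of the DHRS4 cluster of short-chain dehydrogenases, fell by 0.60 ± 0.10 (limma, adjusted p = 1.13e-04). It read 7.22, 6.87 and 7.10 untreated and 7.13, 6.26 and 6.58 with CCL at 6 h, 7.15, 7.02 and 7.47 against 6.25, 6.34 and 6.62 at 12 h, and 7.36, 7.16 and 7.40 against 6.29 and 6.95 at 48 h. Its values at 18 h were 7.55 and 7.42 against 6.78, 6.93 and 6.82, and at 24 h 7.25, 6.92 and 7.31 against 6.72 and 6.68. The arms were apart from 12 h on. DHRS4 itself did not pass the test (-0.03 ± 0.16), and the pair differed by -0.57 (exact permutation p = 0.0136). DHRS4 was also dim, with a mean log2 value of 4.58 against 6.95 for DHRS4-AS1, and whether its level hid a change was not tested. With the mean of all probe sets of each gene DHRS4-AS1 changed by -0.29 ± 0.09 and the difference was -0.26 (exact permutation p = 0.147), since the second probe set of DHRS4-AS1 had a mean of 2.43 and a change of 0.03. The neighbouring DHRS4L2 fell by 0.86 ± 0.12 and DHRS2 by 1.14 ± 0.15 (limma, adjusted p = 8.91e-06 and 4.65e-06), although genes of this cluster are similar in sequence and their probe sets may share signal.

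WAC-AS1 fell by 0.48 ± 0.16 (limma, adjusted p = 0.0307), beside 0.07 ± 0.10 for WAC, which encodes an adaptor of histone H2B ubiquitination. It read 5.05, 5.37 and 5.30 untreated and 3.84, 4.74 and 4.85 with CCL at 6 h, 4.40, 4.80 and 4.52 against 3.86, 4.36 and 3.85 at 12 h, and 5.44, 5.27 and 5.30 against 3.59 and 5.03 at 48 h. Arrays at 18 h read 4.24 and 5.40 against 4.96, 4.94 and 5.31, and at 24 h 5.10, 4.82 and 5.26 against 4.12 and 5.38. The arms were apart at 6 h, 12 h and 48 h, and at 18 h the CCL mean was the higher (0.25, beside 0.18 for WAC). Without the 6 arrays that stood apart the mean change was -0.28 ± 0.10. The pair differed by -0.55 (exact permutation p = 0.00805). WAC-AS1's own call was lost without any of untreated 12 h set 2, untreated 18 h set 3, CCL 6 h set 1, CCL 24 h set 1 and CCL 48 h set 1 (adjusted p up to 0.123), and the difference of the pair had an exact permutation p of 0.0548 without untreated 18 h set 3.

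SVIL-AS1 differed by -0.58 from SVIL, which encodes the actin-binding protein supervillin (exact permutation p = 9.22e-04), and NIFK-AS1 by -0.43 from NIFK, which encodes a nucleolar partner of Ki-67 (exact permutation p = 0.00322). Neither antisense RNA was called on its own with the deposited values, and both pairs are named after their values were seen. Both were among 6 further RNAs called lower after quantile normalization (-0.28 and -0.38, limma, adjusted p = 0.0151 and 0.0104).

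Antisense and sense changes had the same sign in 8 of the 13 pairs, and in 2 of these, TMPO and ARHGAP5, both partners were called. TMPO, which encodes a lamina-associated protein, fell by 0.68 ± 0.11 (limma, adjusted p = 3.90e-05) beside the fall of 0.81 in TMPO-AS1. Their responses were not told apart (exact permutation p = 0.384). ARHGAP5 rose by 0.50 ± 0.10 (limma, adjusted p = 7.15e-04) beside 0.76 in its antisense RNA (exact permutation p = 0.173). PDCD4, an inhibitor of translation whose RNA PDCD4-AS1 is reported to stabilise, had a change of -0.52 ± 0.21 that did not pass the test (limma, adjusted p = 0.0774), beside -0.54 in PDCD4-AS1 (exact permutation p = 0.930). With the mean of both PDCD4-AS1 probe sets that difference went from -0.02 to 0.30 (exact permutation p = 0.108). A p above the threshold does not show equal responses.

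In the other direction, PCNA, the sliding clamp of DNA replication, fell by 0.62 ± 0.14 (limma, adjusted p = 0.00146) with -0.23 ± 0.17 in PCNA-AS1, which was not called (pair difference 0.39, exact permutation p = 0.0745). That p fell below 0.05 in 5 of the 27 tests that left out 1 array, those without untreated 12 h set 3, untreated 24 h set 1, CCL 6 h set 1, CCL 18 h set 2 or CCL 48 h set 2 (from 0.0313 to 0.0425). STARD7, a carrier of phosphatidylcholine to mitochondria, fell by 0.32 ± 0.11 with -0.08 ± 0.10 in STARD7-AS1 (exact permutation p = 0.1003, and 0.00775 without untreated 24 h set 1). The STARD7 call was lost in 16 of the 27 fits that left out 1 array (limma, adjusted p up to 0.139).

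**Figure D4:**
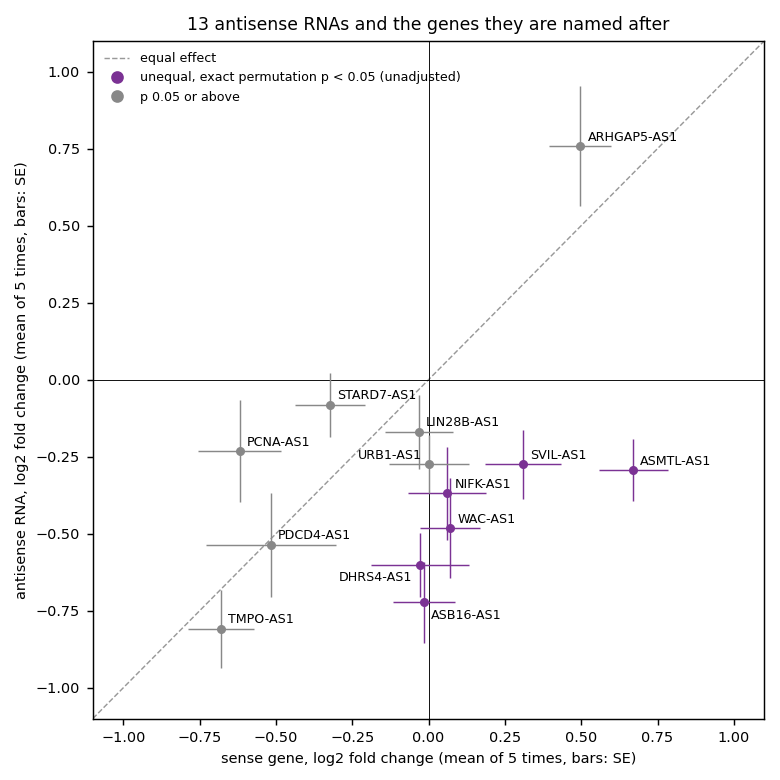
Log2 fold change, CCL against untreated, averaged over 5 times, of 13 antisense RNAs (y axis) against the genes they are named after (x axis); bars are 1 SE, the dashed line marks equal change, and purple marks pairs with an unadjusted exact permutation p under 0.05. The 6 purple pairs lie below the line, with ASMTL-AS1 at -0.29 for a sense change of 0.67, while TMPO-AS1, PDCD4-AS1 and ARHGAP5-AS1 lie nearer to it.

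The arrangement of the pairs was read from RefSeq promoter windows. Windows of both genes were found for 31 antisense RNAs, and all 31 lay on opposite strands. In 7 of these the starts lay within 1000 bases and pointed away from each other, among them 4 of the 11 tested pairs with windows: ARHGAP5-AS1 (605 bases between starts), LIN28B-AS1 (438), WAC-AS1 (425) and URB1-AS1 (121). These 4 did not share a response, as ARHGAP5-AS1 rose, WAC-AS1 and URB1-AS1 fell, and LIN28B-AS1 was not called (-0.17 ± 0.12).

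The promoters of URB1-AS1 and WAC-AS1 are shown since they overlap those of their sense genes and both RNAs were called. The window of LIN28B-AS1, not called, shared 63 bases with that of LIN28B, and those of ATP6V0E2-AS1 and MAGI2-AS3, whose sense genes were not tested, shared 206 and 208. URB1 encodes a factor of ribosome assembly. Capitals mark the longest run shared with the reverse complement of the sense gene's window, 220 bases for URB1-AS1 at chr21:32392883-32393182 (plus strand) and 76 bases for WAC-AS1 at chr10:28532305-28532604 (minus strand), both GRCh38.p14 from RefSeq.
URB1-AS1: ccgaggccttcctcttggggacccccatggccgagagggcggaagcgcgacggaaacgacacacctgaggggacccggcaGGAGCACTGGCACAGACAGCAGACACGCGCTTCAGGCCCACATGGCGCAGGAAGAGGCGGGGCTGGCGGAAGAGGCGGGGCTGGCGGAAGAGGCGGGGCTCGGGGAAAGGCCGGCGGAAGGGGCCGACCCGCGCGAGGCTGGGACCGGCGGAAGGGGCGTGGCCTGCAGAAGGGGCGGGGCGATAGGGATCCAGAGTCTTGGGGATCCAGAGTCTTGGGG
WAC-AS1: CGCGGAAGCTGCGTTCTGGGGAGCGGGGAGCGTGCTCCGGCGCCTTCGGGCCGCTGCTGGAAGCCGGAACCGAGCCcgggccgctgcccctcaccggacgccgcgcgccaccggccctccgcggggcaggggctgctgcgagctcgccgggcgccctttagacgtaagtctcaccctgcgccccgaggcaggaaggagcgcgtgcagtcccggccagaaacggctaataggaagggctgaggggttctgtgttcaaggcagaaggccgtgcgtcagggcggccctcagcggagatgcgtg

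URB1-AS1 read 5.55, 5.46 and 5.56 untreated and 5.26, 4.89 and 5.43 with CCL at 6 h, and 5.51, 5.42 and 5.73 against 5.25, 5.12 and 4.76 at 12 h. At 18 h it read 5.59 and 6.16 against 5.67, 5.66 and 5.93, at 24 h 5.86, 5.97 and 5.64 against 5.43 and 5.76, and at 48 h 5.68, 5.50 and 5.41 against 5.42 and 5.29. All CCL arrays were below the untreated ones at 6 h and 12 h, and the arms overlapped later. Its mean log2 fold change was -0.27 ± 0.09 (limma, adjusted p = 0.0326), a call lost in 8 of the 27 fits that left out 1 array (up to 0.0900), while URB1 changed by 0.00 ± 0.13. The difference of the pair was -0.28 (exact permutation p = 0.115, and 0.00434 without CCL 48 h set 1). Neither URB1 nor WAC was called.

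LINC RNAs were set beside their RefSeq neighbours. For 8 of the 12 named LINC RNAs a flanking gene was tested, and 4 of these 8 neighbours were called, beside 24.6% of all genes. FOXA2, a transcription factor of endoderm and liver, fell by 0.44 ± 0.12 (SE, limma, adjusted p = 0.00968) next to LINC00261, and ZBTB14, a zinc finger protein, by 0.59 ± 0.14 (adjusted p = 0.00269) next to LINC00667. CAPRIN2, an RNA-binding protein gene, rose by 0.71 ± 0.17 (limma, adjusted p = 0.00315) next to LINC00941. In these 3 cases the LINC RNA was called in the same direction, and with 8 neighbours the counts are a description. CEP170, a gene of the centriole, rose by 0.48 ± 0.14 next to LINC01347, which was not called. SOX9, a transcription factor of progenitor cells, had -0.33 ± 0.13 next to the rising LINC00673 and did not pass the test (limma, adjusted p = 0.0689).

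Other classes of long non-coding RNA were read from lists by name. In the mean of 5 times 11% of all genes fell and 13.6% rose, and with lists this short the counts are a description. Of 14 divergent transcripts (symbols ending in -DT) tested, 3 fell and 0 rose. These 3 were SEPSECS-DT (-0.82 ± 0.21), UBL7-DT (-0.77 ± 0.20) and RAB30-DT (-0.57 ± 0.15), and the median over the list was -0.16. Of 7 snoRNA host genes of the SNHG family none was called, with a median of 0.06. Of 44 well-studied long non-coding RNAs on a list, 10 were tested besides EPB41L4A-AS1, which is among the 68 and was not called (-0.14 ± 0.21). Of these 10, 3 rose and 0 fell, beside 13.6% and 11% of all genes. LINC-PINT, an RNA induced by p53, rose by 1.49 ± 0.25 and CYTOR by 0.57 ± 0.13 (limma, adjusted p = 7.01e-05 and 0.00231), and the third was UCA1 (3.03 ± 0.22). MALAT1, a component of nuclear speckles, had 0.22 ± 0.19, and the liver RNA HULC 0.07 ± 0.15, neither past the test. Of 2 microRNA host genes tested, MIR4435-2HG rose by 0.44 ± 0.13, although it is a near copy of CYTOR and their signals may be shared. No intronic transcript (-IT) was tested, and the 1 overlapping transcript (-OT), SLC9A3-OT1, was not called.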

How the data were processed

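The submitters' processing notes name Affymetrix Expression Console 1.1 and RMA for these HuGene 2.0 ST arrays. The authors deposited 1 log2 value for each of 53617 probe sets on each of 29 arrays, used here unchanged. The genome build is not given in the sources used here. No intensities or detection calls were used here, so for arrays the number of arrays (2 or 3 a group) limits the precision, and no value could be tested against background.

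Probe sets were named from the platform's table, where 16098 had 1 symbol, 37519 had none here and 0 had several. Genes with a log2 value above 5 on at least 2 arrays were tested. limma 3.58.1 (R 4.3.3, lmFit and eBayes) fitted 1 mean per group. Contrasts were CCL against untreated at each time, their mean, their difference between times, and untreated 48 h against 6 h. Antisense and sense genes were compared by an exact permutation test over 13 pairs, unadjusted. RefSeq (GRCh38.p14) gave names, neighbours and promoter windows.

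The members and lists were chosen with earlier results of these data known. RNAs named by rule were the 12 highest and 12 lowest called in the mean of 5 times, the 4 highest and 4 lowest called at each time, antisense RNAs of called pairs, the 6 brightest, and a short list of liver and tumour RNAs, of which LINC00261, ASB16-AS1 and FOXD2-AS1 were members. SVIL-AS1, NIFK-AS1, RAB11B-AS1, SDCBP2-AS1, LINC00701 and MAGI2-AS3 fall outside this rule and were named after their values were seen. Other RNAs outside it, LIN28B-AS1 among them, are named for their level, promoter window or place on a list. Alternatives were quantile normalization, median centring, no limit on level, the mean of a gene's probe sets, the set as a block, array weights, trend and robust eBayes, the compared arrays alone and each array left out. The fit was tested on simulated data.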

Additional observations from a re-analysis of the deposited data

How the results depend on the processing

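Over the mean of 5 times the count of called RNAs stayed between 18 and 28 under the alternatives, and moved more widely when 1 array was left out. Its extremes then came from fits that keep 1 CCL array at 48 h, so they are not given. All 21 RNAs were called in the same direction after quantile normalization, which added 6, all lower. Calls over all genes went up as well, from 24.6% to 35.4%. Counts at single times moved, for these RNAs and over all genes. Quantile normalization called 1.3% of all genes at 6 h, 2.24% at 12 h, 5.18% at 18 h, 6.89% at 24 h and 12.4% at 48 h. Calls over all genes are not given for the other alternatives, so the counts below do not show a property of these RNAs. At 6 h, where 1 RNA was called, quantile normalization and median centring gave 2, array weights 11, the compared arrays alone 3 and the fit without the 6 arrays that stood apart 4. At 12 h, where 2 were called, these gave 1 (quantile), 30 (weights), 8 (compared arrays) and 11 (without the 6). At 18 h, where 7 were called, weights and the compared arrays gave 0. At 24 h, where 3 were called, weights gave 8 and the compared arrays 0. At 48 h, where 3 were called, quantile normalization gave 6, median centring 5, no limit on level 1, and weights and the compared arrays 0. The fit without the 6 arrays keeps 1 array in a group at 18 h, 24 h and 48 h, so its counts there are not given. Array weights gave 4 calls between untreated 48 h and 6 h, where the deposited values gave 0, and their estimation stopped before its tolerance was reached. The cause of these moves was not tested. Leaving out 1 of the arrays compared gave 0 calls at 6 h, with 6 to 18 over all genes, and 0 to 1 at 12 h, with 28 to 47. The ranges that follow also take in arrays of other times. With 1 array left out, counts ranged from 0 to 2 at 6 h, 0 to 4 at 12 h, 0 to 16 at 18 h, 0 to 5 at 24 h, 0 to 26 at 48 h and 0 to 7 for a difference between times.

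With the set number as a replicate block 26 RNAs were called in the mean of 5 times, all 21 among them in the same direction. The block gave 1 call at 6 h, 6 at 12 h, 12 at 18 h, 6 at 24 h and 12 at 48 h. The labels do not say what a set is. Deviations of same-numbered arrays from their group means correlated above 0.1 in 9 of 12 pairs (from -0.07 to 0.44), so a shared set effect is possible but was not established for every pair. Of 12 CCL arrays, 7 correlated best with the untreated array of their own number.

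No called value of the 27 RNAs named by rule, or of their tested sense genes, changed sign under the alternatives run, which did not cover the neighbours and other lists. Array medians, single arrays at 18 h, 24 h and 48 h, and groups of 2 arrays limit what single times can show, and dim RNAs such as LINC00941 lie near the medians of the arrays.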

Other observations

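The nuclear RNA exosome, the complex that degrades many short-lived non-coding RNAs, was read from a list of 27 genes of the complex and its cofactors, of which 17 were tested. In the mean of the 5 times EXOSC5, a subunit of its core ring, rose by 0.33 ± 0.11 on the log2 scale (SE, limma, adjusted p = 0.0318) and EXOSC9, another subunit of the ring, fell by 0.43 ± 0.14 (limma, adjusted p = 0.0307). The other 15 did not pass the test, among them the nuclease genes EXOSC10 (0.18 ± 0.09) and DIS3 (0.11 ± 0.12), the helicase gene MTREX (-0.12 ± 0.13) and XRN2, a nuclease of transcription termination (0.14 ± 0.09). Thus 1 of the 17 rose and 1 fell, beside 13.6% and 11% of all genes. The median over the 17 was 0.03, beside 0.01 over all genes tested.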
